A study of Mus musculus with 6 samples.

Results

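The renin-angiotensin system of the mouse heart was followed through 9 genes, namely angiotensinogen, the enzymes that process it, the mouse angiotensin receptors and a receptor-associated protein. Every probe set annotated to exactly 1 of these genes was taken, whatever its value, which gave 10 of the 45037 probe sets of the table other than controls, a table in which 18193 genes have a probe set of their own. Of the 9 genes, 8 had at least 1 such probe set, with 2 each for Ace and Agtrap, while Ren1, which encodes renin, had none and was not analysed here. RNA abundance was measured in heart tissue on Affymetrix Mouse430_2 arrays, 3 from C57BL/6 mice overexpressing hAT1R, the human type 1 angiotensin II receptor, and 3 from normal C57BL/6 mice, on RNA of 6 ug per array. The series design gives age-matched and sex-matched animals. The ages, the number of animals behind each array, the promoter driving the transgene and the number of founder lines were not stated in the labels. No treatment or allele other than the transgene is named for either group.

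In this system renin cuts angiotensinogen, a large plasma protein made mainly by the liver, to a short inactive peptide, and angiotensin-converting enzyme (Ace) trims that peptide to angiotensin II. Angiotensin II acts on the type 1 receptor, which in mice is encoded by the gene pair Agtr1a and Agtr1b, to raise blood pressure and promote growth of heart muscle and matrix, while the type 2 receptor Agtr2 is mostly a receptor of fetal tissue that opposes these actions. Aminopeptidase A, encoded by Enpep, removes the first residue of angiotensin II, the receptor Mas1 answers to a shorter peptide with opposing actions, and Agtrap binds the tail of the type 1 receptor and promotes its internalisation.

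The group names carry a limit that touches every signed value below. In the instrument's own records the name typed into the chip lot field held the word control on the 3 arrays labelled transgenic and the word transgene on the 3 labelled non-transgenic. Groups follow the sample labels, "labelled transgenic" is written for this reason, and taking the typed words instead would turn each sign. No probe set was annotated to the human receptor gene, so the transgene itself could not check the labels. The arrays had median log2 values from 3.25 to 3.31, Pearson correlations across probe sets of 0.9952 to 0.9967 within groups and 0.9933 to 0.9961 between them, and heart muscle markers such as Myh6 near the top of the scale. Of 6 atrial markers Myl7, Sln and Bmp10 lay below the brightness filter, Myl4 overlapped between groups and Tbx5 was at -0.68 ± 0.22 (limma adjusted p = 0.223). The sixth, Nppa, the gene of atrial natriuretic peptide, which ventricles also make under load, rose by 2.19 ± 0.17 (14.55 against 12.35, adjusted p = 0.0257). That call held without labelled transgenic array 1 or non-transgenic array 1 (adjusted p = 0.0421 and adjusted p = 0.047), and without any other single array the adjusted p was 0.0916 to 0.139. High Xist, an RNA made from the silenced X chromosome of females, set labelled transgenic arrays 1 and 3 and non-transgenic array 2 apart (log2 above 6). Each group thus held both sexes in unequal number, although the series design gives sex-matched animals. Fluidics station 2 washed all 3 labelled transgenic arrays but, of the non-transgenic ones, array 1 alone, the other 2 having gone through station 3. With the fluidics station as a block the Nppa difference was 1.85. With the Xist level as a term in limma no probe set passed, Nppa included. Scanning took the labelled transgenic group first and the non-transgenic group second, and the scan order cannot be told apart from the group. Nothing in the labels says that each array is a separate animal. With both sexes in each group its arrays were not all of 1 sample, but those of 1 sex may be. The p-values thus measure the spread between these arrays, which may in part be technical. In whole tissue, fewer cells of a type and less RNA per cell cannot be told apart.

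Ace and Enpep, enzymes on either side of angiotensin II, were the members with the largest differences, and their promoters are shown for that reason, from the RefSeq table of build GRCm38.p6, which matched 8 of the 9 genes by symbol and held no entry for Agtr1a. Each run gives the 250 bases before an annotated start, 5′ to 3′ on the gene's strand. Capitals mark matches, on either strand, of the TATA box TATAAA, of the GC box GGGCGG or of the CCAAT box. A match on the opposite strand shows as its reverse complement.

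Ace, first annotated start, chr11:105967698-105967947, plus strand: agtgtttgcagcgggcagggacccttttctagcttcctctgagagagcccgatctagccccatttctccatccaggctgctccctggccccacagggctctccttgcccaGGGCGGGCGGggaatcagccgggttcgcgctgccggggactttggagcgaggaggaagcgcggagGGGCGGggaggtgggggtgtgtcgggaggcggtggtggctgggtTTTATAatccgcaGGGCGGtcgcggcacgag

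Enpep, chr3:129332750-129332999, minus strand: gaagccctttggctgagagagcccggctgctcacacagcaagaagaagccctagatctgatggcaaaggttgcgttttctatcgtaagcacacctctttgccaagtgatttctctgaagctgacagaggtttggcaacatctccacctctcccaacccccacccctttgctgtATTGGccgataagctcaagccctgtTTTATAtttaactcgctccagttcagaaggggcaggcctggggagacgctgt

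The Ace window had a GC content of 67.2% and held GGGCGG at 4 places, a pair of which overlapped (140 to 135 and 136 to 131 bases before the start), the others lying 75 to 70 and 18 to 13 bases before it. It also held TATAAA on the opposite strand, 31 to 26 bases before the start. The Enpep window had a GC content of 52.4% and no GGGCGG, with TATAAA on the opposite strand 52 to 47 bases and CCAAT on the opposite strand 77 to 73 bases before the start. Over all 32851 windows of this length in the table, 12.4% held TATAAA, 32.7% GGGCGG and 33.8% CCAAT on either strand, and the median GC content was 52.4%. The table lists another Ace start on the same chromosome, with a window at chr11:105974939-105975188 that held CCAAT on the opposite strand 25 to 21 bases before it and neither other motif, and the probe sets were not assigned to a start. The matches describe the letters of these windows, and binding at them was not measured here.

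Whether a member was read above background was taken from the values themselves, because the table holds no detection call. The brightness filter was the median of all probe set means, log2 3.285, and 8 of the 10 member probe sets lay above it. A second gauge, chosen after the values were seen, was the level of the Y-linked genes Eif2s3y, Kdm5d and Uty on the 3 arrays with high Xist. Their 9 probe sets gave 27 values there, from 1.99 to 3.60 with a median of 2.79, whereas the brightest Eif2s3y probe set read 9.17 to 9.25 on the other 3 arrays. Some of these probe sets may also read the X-linked relatives of these genes, so the range is a guide to the level of an absent transcript and no exact floor.

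The receptors split by this gauge into one bright gene and others at background. Agtr1a, the main type 1 receptor gene of the mouse heart, read log2 9.97, 9.94 and 9.89 on labelled transgenic arrays 1 to 3 and 10.61, 9.65 and 9.69 on the non-transgenic arrays, brighter than 94% of all probe sets on average. Agtr1b, its close relative, read 2.37, 2.40 and 2.38 against 2.33, 2.39 and 2.38. Agtr2 read 2.85, 2.87 and 2.86 against 2.74, 2.88 and 2.86. Both lay below the brightness filter and inside the range of Y-linked probe sets on high-Xist arrays on all 6 arrays, so these values give no level of their transcripts. Mas1 read 3.42, 3.45 and 3.50 against 3.51, 3.55 and 3.56, just above the filter and still inside that range, so its transcript was not told apart from background either.

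**Figure D1:**
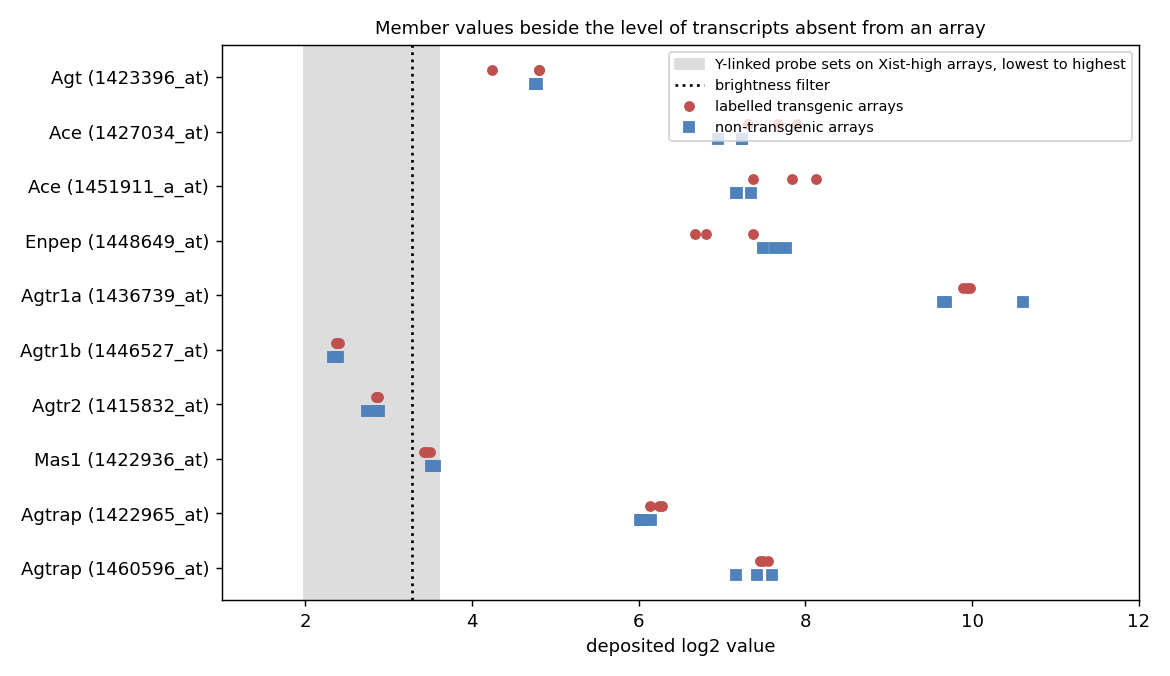
Deposited log2 value of each member probe set on the 3 labelled transgenic (red circles) and 3 non-transgenic arrays (blue squares), with the range of Y-linked probe sets on high-Xist arrays (gray, 1.99 to 3.60) and the brightness filter (dotted, 3.285). Agtr1b, Agtr2 and Mas1 lie inside the gray range and the other members above it.

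None of the 8 member probe sets tested passed limma's moderated test at an adjusted p under 0.05, where 49 of 22518 probe sets, or 0.218%, did. Their adjusted p ran from 0.18 for Enpep to 0.946 for Agtr1a. At an unadjusted p under 0.05 there were 3, both Ace probe sets higher (9.41% of all probe sets tested) and Enpep lower (6.98% of all) in the labelled transgenic group, or 16.4% of all in either direction. The groups did not overlap at 4 of the 8 (the same 3 and Mas1), against 23.0% of all. Of these, 2 were higher (13.2% of all) and are readings of 1 gene, Ace, and 2 were lower (9.78% of all). The median difference of the 8 was 0.026 and that of all probe sets tested 0.0097, while the median size regardless of sign was 0.15 against 0.13.

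**Figure D2:**
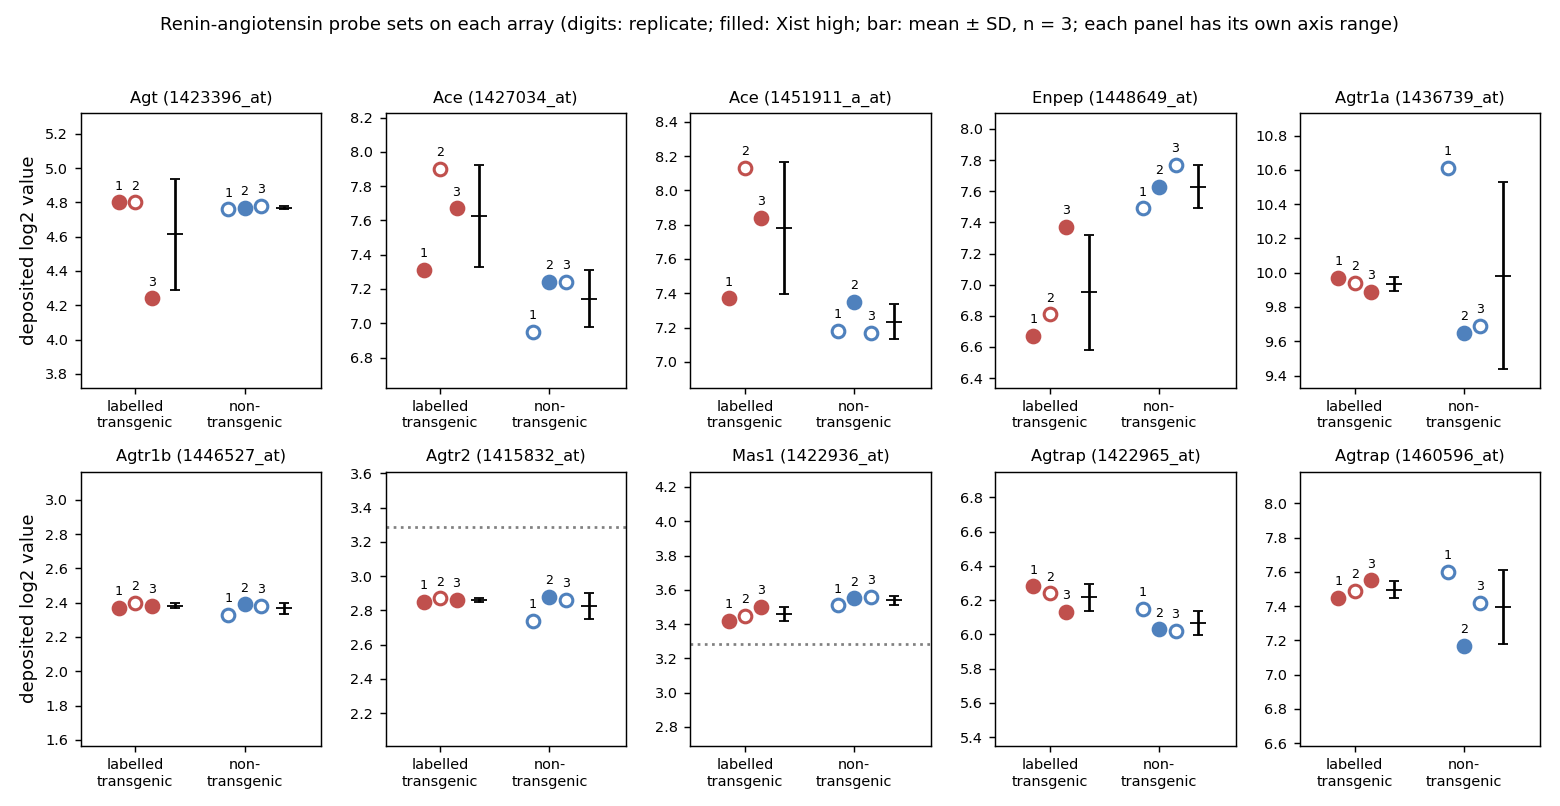
Deposited log2 value (y axis, a range of its own in each panel) of the 10 member probe sets on each array, with replicate numbers, filled points for arrays with high Xist, mean ± SD of 3 arrays per group, and the brightness filter dotted where it falls in the panel. Ace is higher and Enpep lower on every labelled transgenic array, and non-transgenic array 1 stands apart for Agtr1a at 10.61.

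Angiotensinogen, the precursor of the system, was read by 1 probe set at a low level that was nearly constant on 5 arrays. Agt was at 4.80, 4.80 and 4.24 on the labelled transgenic arrays and 4.76, 4.77 and 4.78 on the non-transgenic ones. Labelled transgenic array 3 alone was low and the groups overlapped. The difference came to -0.15 ± 0.16 (moderated SE in limma), its 95% interval reaching from -0.54 to 0.24 (adjusted p = 0.687). Without labelled transgenic array 3 it was 0.034. Liver transcripts varied far more between these arrays. Alb, which encodes serum albumin, read 5.30, 5.59 and 8.39 against 2.78, 8.05 and 7.93, and Ttr, the transport protein transthyretin, 5.63, 6.43 and 7.73 against 3.83, 6.81 and 7.31. Apoa1, also on the liver list, read 3.99, 4.77 and 6.31 against 3.61, 5.92 and 6.61 and was highest on non-transgenic array 3. Labelled transgenic array 3 had the lowest Agt and the highest Alb and Ttr. Non-transgenic array 1 had the lowest Alb, Ttr and Apoa1, with Agt at 4.76. Of the fat cell markers Adipoq, Lep, Retn, Cidec and Ucp1 were all below the brightness filter, at 2.08 to 2.89 over the 6 arrays, and Plin1 and Cfd were not analysed here. The part of liver RNA or of fat cells in the Agt value was not tested.

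Ace, the enzyme that forms angiotensin II and also breaks down bradykinin, was higher on each labelled transgenic array by both of its probe sets, although neither passed. Probe set 1427034_at read 7.31, 7.90 and 7.67 against 6.95, 7.24 and 7.24. Probe set 1451911_a_at read 7.37, 8.13 and 7.84 against 7.18, 7.35 and 7.17. Array 2 of the labelled transgenic group was the highest and its array 1 the lowest in both, and the gap between the groups was as small as 0.069 and 0.017 on the log2 scale. Averaged over 3 arrays, the first was at 7.62 ± 0.30 against 7.14 ± 0.16 (SD, n = 3) and the second at 7.78 ± 0.38 against 7.23 ± 0.10. The difference was 0.48 ± 0.17 for the first (SE, 1.40-fold, 95% interval 1.05 to 1.85, limma adjusted p = 0.248). It was 0.55 ± 0.19 for the second (1.46-fold, 95% interval 1.05 to 2.03, adjusted p = 0.253). In size these exceeded 92.7% and 94.7% of all differences tested.

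The size of the Ace difference moved with single arrays and not its direction. Over 17 alternatives the first probe set ran from 0.34 without labelled transgenic array 2 to 0.67 with a block for the fluidics station, and the second from 0.37 to 0.75, without labelled transgenic arrays 2 and 1 in that order. The adjusted p ran from 0.127 to 0.495 and from 0.0978 to 0.506. As the mean of both probe sets Ace was at 0.51 (adjusted p = 0.205). Endothelial cells are a main site of Ace, and the 10 endothelial markers on the list did not separate the groups, with mean log2 values of 8.92 to 9.13 against 8.89 to 9.12 and none at an unadjusted p under 0.05. Macrophages, which can also carry Ace, had a marker list whose mean did separate them, as given below.

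Enpep, the aminopeptidase that turns angiotensin II into the next peptide of the chain, pointed the other way and was likewise not called. It read 6.67, 6.81 and 7.37 on the labelled transgenic arrays and 7.49, 7.63 and 7.77 on the non-transgenic ones, means of 6.95 ± 0.37 and 7.63 ± 0.14 (SD, n = 3). Each labelled transgenic array was below each non-transgenic one, and labelled transgenic array 3 came within 0.121 of them. The difference was -0.68 ± 0.19 (SE), which is 1.60-fold lower with a 95% interval from 1.16 to 2.21 (limma adjusted p = 0.18), larger in size than 96.9% of all tested. It kept its sign in the 17 alternatives, from -0.89 without labelled transgenic array 3 to -0.54 with a block for the fluidics station, and its adjusted p ran from 0.0821 to 0.498. Pericytes are a known site of Enpep in heart, and the list of pericyte and smooth muscle markers overlapped between groups, at mean log2 9.10 to 9.33 against 9.11 to 9.50. Of its 10 genes 7 were lower and 3 higher, none passed, and an unadjusted p under 0.05 was reached by 3 lower (Abcc9, Myh11 and Tagln, at -0.36, -0.18 and -0.33) and 1 higher (Des, at 0.30). Among all probe sets tested 6.98% were lower and 9.41% higher at that limma threshold. On this list neither the reading of Des nor that of Abcc9, a channel subunit, was assigned to a cell type. Abcc9 read 12.21, 12.07 and 12.24 against 12.57, 12.57 and 12.44. The channel gene Kcnj8 read 8.96, 9.03 and 9.24 against 9.25, 9.16 and 9.16. The growth factor receptor Pdgfrb read 9.55, 9.51 and 9.86 against 9.52, 9.96 and 9.61. Notch3 read 8.40, 8.21 and 8.60 against 8.26, 8.37 and 8.03, a difference of 0.18. Cspg4 read 7.16, 7.09 and 7.62 against 7.04, 7.48 and 7.29, a difference of 0.02. With Des these made up the 3 higher genes of the list. Kcnj8, Pdgfrb, Notch3 and Cspg4 overlapped and Abcc9 did not. The part of pericytes or smooth muscle cells in the Enpep value was not tested.

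**Figure D3:**
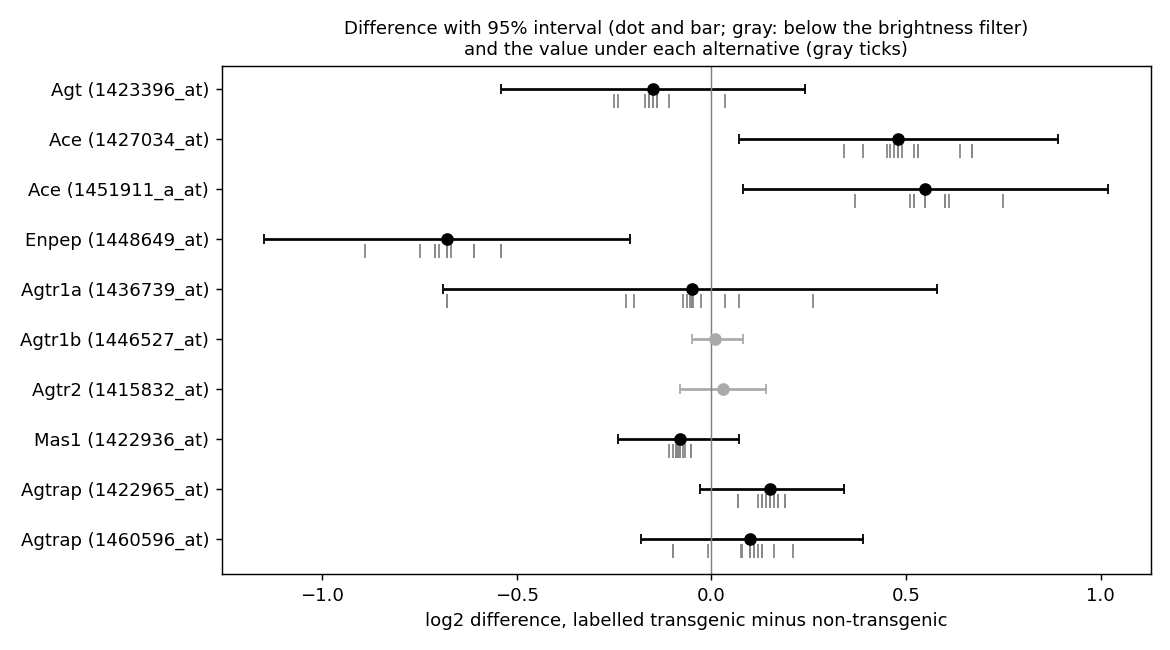
Log2 difference of each member probe set, labelled transgenic minus non-transgenic (x axis), with its 95% interval from limma (dot and bar, gray below the brightness filter) and its value under each alternative setting (gray ticks). The intervals of both Ace probe sets lie above 0 and that of Enpep below it, and the ticks of Agtr1a run from -0.68 to 0.26.

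For Agtr1a the difference rested on how non-transgenic array 1 was treated. The labelled transgenic arrays lay within 0.08 of each other (9.93 ± 0.04, SD, n = 3), between non-transgenic array 1 and the other 2, whose group averaged 9.99 ± 0.55. The difference was -0.05 ± 0.26 (limma adjusted p = 0.946), with a 95% interval for the ratio from 0.622 to 1.50. Without non-transgenic array 1 it was 0.26 (adjusted p = 0.195), and with the fluidics station as a block, which sets the labelled transgenic arrays against that array alone, it was -0.68 (adjusted p = 0.0836). That array, at 10.61, was the single non-transgenic one from station 2, while those of station 3 averaged 9.67. By sex the 3 arrays with high Xist lay from 9.65 to 9.97 and the 3 others from 9.69 to 10.61, and a fit that included the Xist level gave a difference of 0.035. The probe sequences were not used here, so whether this mouse probe set also reads RNA of the human transgene was not tested.

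Agtrap, the protein that binds the type 1 receptor and lowers its number at the surface, differed little, and its probe sets varied apart from each other. Probe set 1422965_at read 6.28, 6.24 and 6.13 against 6.15, 6.03 and 6.02. Probe set 1460596_at read 7.45, 7.49 and 7.55 against 7.60, 7.17 and 7.42. The first overlapped at a single pair of arrays, whereas in the second the highest and the lowest array were both non-transgenic. Their differences were 0.15 ± 0.08 (limma adjusted p = 0.387, interval -0.03 to 0.34) and 0.10 ± 0.12 (adjusted p = 0.712, interval -0.18 to 0.39). Blocked by fluidics station the second was at -0.10, and without non-transgenic array 2 at -0.009. For Mas1 the difference was -0.08 ± 0.06 (adjusted p = 0.559), and although its groups did not overlap, the gap of 0.01 lay within the range read for absent transcripts. The probe signals of Agtr1b and Agtr2, at background, differed by 0.01 ± 0.03 and 0.03 ± 0.04 in the fit without the brightness filter (limma adjusted p = 0.827 for both), and these values are no fold of the transcripts.

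Enzymes and receptors next to these members were described from lists chosen for the pathway. Of 16 further angiotensin-processing enzymes, 10 genes lay above the filter and none of their 14 probe sets passed in limma. An unadjusted p under 0.05 was reached by 2 higher (9.41% of all probe sets tested) and 1 lower (6.98% of all). Mme, or neprilysin, which forms the peptide that Mas1 binds and degrades natriuretic peptides, read 4.84, 4.36 and 4.35 against 5.34, 5.37 and 5.34. The non-transgenic arrays agreed closely and all lay above the others, and the difference was -0.84 ± 0.14 (adjusted p = 0.078, and adjusted p = 0.0394 without labelled transgenic array 1, where it was -1.0). Its other probe set was at -0.35 ± 0.18. Prep, the prolyl endopeptidase, differed by 0.70 ± 0.14 on a dim probe set and by 0.08 ± 0.09 on a brighter one (adjusted p = 0.114 and adjusted p = 0.72). The protease gene Ctsd was at 0.21 ± 0.08 and the peptidase Nln at 0.22 ± 0.10. Mast cell chymase, a route to angiotensin II that needs no Ace, was at background. Its gene Cma1 read 2.26 to 2.61, and the mast cell genes Cpa3, Mcpt4, Kit, Fcer1a and Ms4a2 and the protease gene Ctsg were below the filter as well. The mast cell tryptase gene Tpsb2 alone of that list of 7 lay above it, at 4.11 to 4.82 with the groups overlapping. Lnpep was not analysed here.

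Among 7 further receptors and partners, of which 6 had probe sets above the filter, none of 14 probe sets passed. In limma 3 higher (9.41% of all probe sets tested) and 1 lower (6.98% of all) had an unadjusted p under 0.05. All 3 higher ones read Mtus1, which encodes proteins that bind the type 2 receptor. They differed by 0.23 ± 0.08, 0.29 ± 0.09 and 0.29 ± 0.09, with no overlap between the groups and adjusted p from 0.195 to 0.243. The lower one was Apln, the gene of the peptide apelin, which opposes angiotensin II in the heart, at 6.12, 6.29 and 6.66 against 7.20, 6.82 and 6.86. Its difference was -0.60 ± 0.17 (limma adjusted p = 0.183). Zbtb16, a partner of the type 2 receptor, was at -0.66 ± 0.32, and at 0.001 once the fluidics station was blocked. Non-transgenic array 1, of station 2, read 9.23, inside the range of the labelled transgenic arrays, and the 2 from station 3 read 10.24 and 10.20. Igf2r, which also takes up renin, was at 0.12 ± 0.09. The prorenin receptor gene Atp6ap2 was bright and flat, with differences from -0.06 to 0.06 on its 3 probe sets. Mrgprd was not analysed here.

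On the kinin and aldosterone arms, 4 of 11 genes lay above the filter and none of 11 probe sets passed. In limma an unadjusted p under 0.05 was reached by 2 higher (9.41% of all probe sets tested) and none lower (6.98% of all). Both read Nr3c1, the glucocorticoid receptor, at 0.65 ± 0.13 and 0.45 ± 0.15 (limma adjusted p = 0.108 and adjusted p = 0.231). Its remaining 4 probe sets ran from -0.02 to 0.38. The mineralocorticoid receptor Nr3c2, which binds aldosterone, read 7.80, 7.64 and 7.35 against 8.03, 7.55 and 7.35 and overlapped, at -0.05 ± 0.20. Hsd11b1, which regenerates active glucocorticoid, was at 0.12 ± 0.32, and the kallikrein gene Klk1 at -0.26 ± 0.11 on the probe set with its smallest p. The bradykinin receptors Bdkrb1 and Bdkrb2 and the aldosterone-forming enzymes Cyp11b1 and Cyp11b2 lay below the filter.

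**Figure D4:**
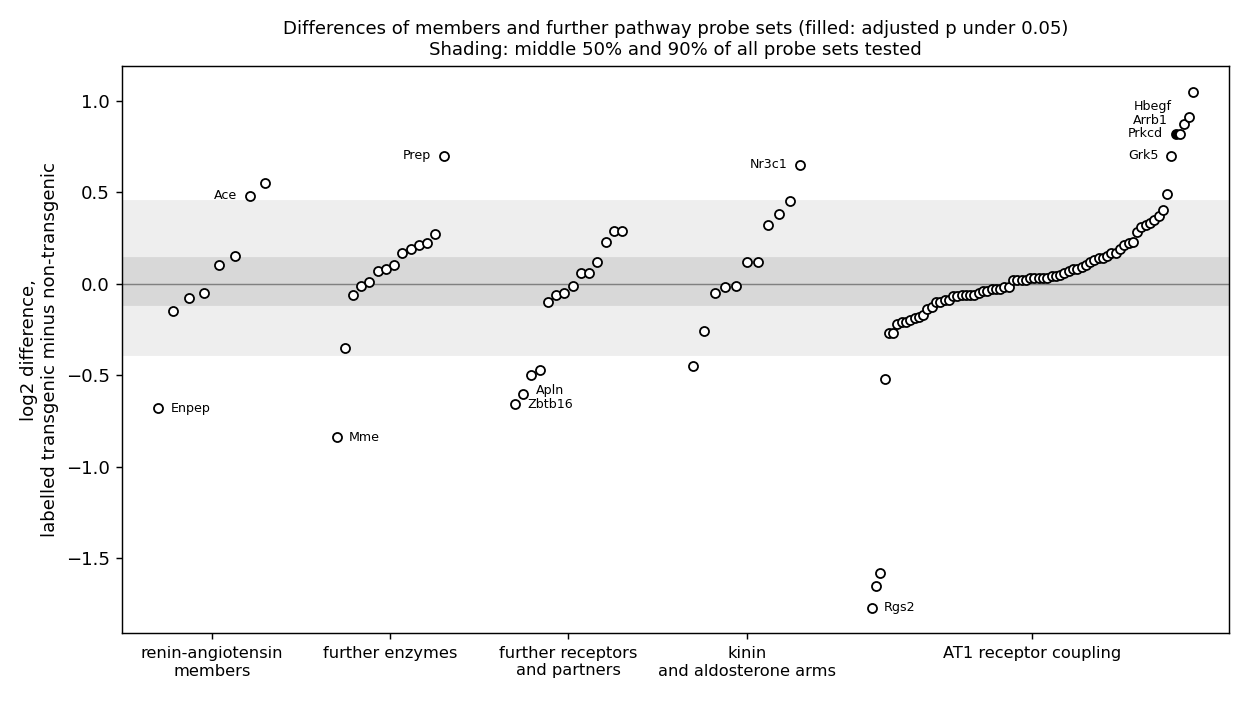
Log2 difference, labelled transgenic minus non-transgenic (y axis), of each probe set above the brightness filter, for the members and 4 lists of further pathway genes, with filled points for an adjusted p under 0.05 and shading for the middle 50% and 90% of all probe sets tested. Prkcd is the 1 filled point, at 0.82, and Rgs2 lies lowest, at -1.77.

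Genes that couple the type 1 receptor to the cell held the 1 call among the 4 pathway lists. Of 29 genes, 25 lay above the filter, and of their 76 probe sets 1 passed (0.218% of all probe sets tested). In limma 11 higher (9.41% of all) and 4 lower (6.98% of all) had an unadjusted p under 0.05. The median difference was 0.03, against 0.0097 for all probe sets tested. Prkcd, a protein kinase C isoform activated downstream of the receptor, read 7.19, 7.21 and 7.31 against 6.39, 6.48 and 6.38 and rose by 0.82 ± 0.07 (limma adjusted p = 0.0266). Its other probe set was at 0.02 ± 0.06. Leaving out 1 array kept its size, from 0.78 to 0.85, but the call held in 1 of the 6 such fits, at adjusted p = 0.0459 without labelled transgenic array 1. The adjusted p was 0.139 and 0.132 without labelled transgenic arrays 2 and 3 and 0.112, 0.0916 and 0.125 without non-transgenic arrays 1 to 3, and it was 0.0821 with the station as a block. Chosen after their values were seen, Grk5, a kinase that phosphorylates active receptors, read 9.57, 9.33 and 9.33 against 8.21, 8.56 and 8.33 (1.05 ± 0.12, adjusted p = 0.0502), and its other probe set was at 0.70 ± 0.33. Hbegf, a ligand shed upon receptor activation, was at 0.91 ± 0.12 and 0.87 ± 0.13 (adjusted p = 0.065 and adjusted p = 0.076). Rgs2, which speeds the switching off of Gq and so limits signals of this receptor, read 8.85, 8.02 and 7.31 against 9.53, 9.91 and 10.06, a difference of -1.77 ± 0.38 (adjusted p = 0.12). Its next probe sets were at -1.58 and -1.65, and a dim one at -0.13. Itpr1, Grk2 and Rock2 were not analysed here.

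Markers of cells that carry members moved with the groups in part. All 8 macrophage markers lay above the filter, and 7 were higher at an unadjusted limma p under 0.05 (9.41% of all probe sets tested), although none passed. The other, Cd163, was lower, at 6.77, 6.71 and 5.87 against 6.63, 7.24 and 7.15 (-0.56 ± 0.29, limma adjusted p = 0.393). The mean log2 value of the 8 was 8.89 to 9.0 on the labelled transgenic arrays and 8.48 to 8.51 on the others. Their summed level, as log2, was 12.76 to 12.99 against 12.35 to 12.48. Of 10 fibroblast markers 9 were higher, 8 at an unadjusted p under 0.05 (9.41% of all) and none past the adjusted threshold, and Dpt was at -0.09 ± 0.09. The fibroblast list had a mean of 10.39 to 10.76 against 9.90 to 10.26 and a summed level of 15.47 to 15.59 against 14.97 to 15.28. Summed endothelial markers were at 12.32 to 12.56 against 12.30 to 12.58, pericyte and smooth muscle markers at 14.18 to 14.32 against 14.18 to 14.34, and cardiomyocyte markers at 18.63 to 18.66 against 18.65 to 18.69. A summed level leans on the brightest genes of its list. For pericytes and smooth muscle these were Des (13.32 against 13.02) and Abcc9 (12.17 against 12.53), which differed in opposite directions, so that sum is no level of these cells. As a gauge of RNA integrity, 3′ and 5′ control probe sets of actin were compared, and the 3′ ones read higher by 0.879 ± 0.074 against 1.01 ± 0.04 (SD, n = 3, 2-sided exact permutation p = 0.1, the smallest that 3 against 3 arrays allow), and those of Gapdh by 0.113 ± 0.003 against 0.132 ± 0.028 (exact permutation p = 0.4). The part of macrophages, fibroblasts or RNA integrity in the values of Ace, Enpep and Agtr1a, a gene that cardiac fibroblasts express, was not tested.

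**Figure D5:**
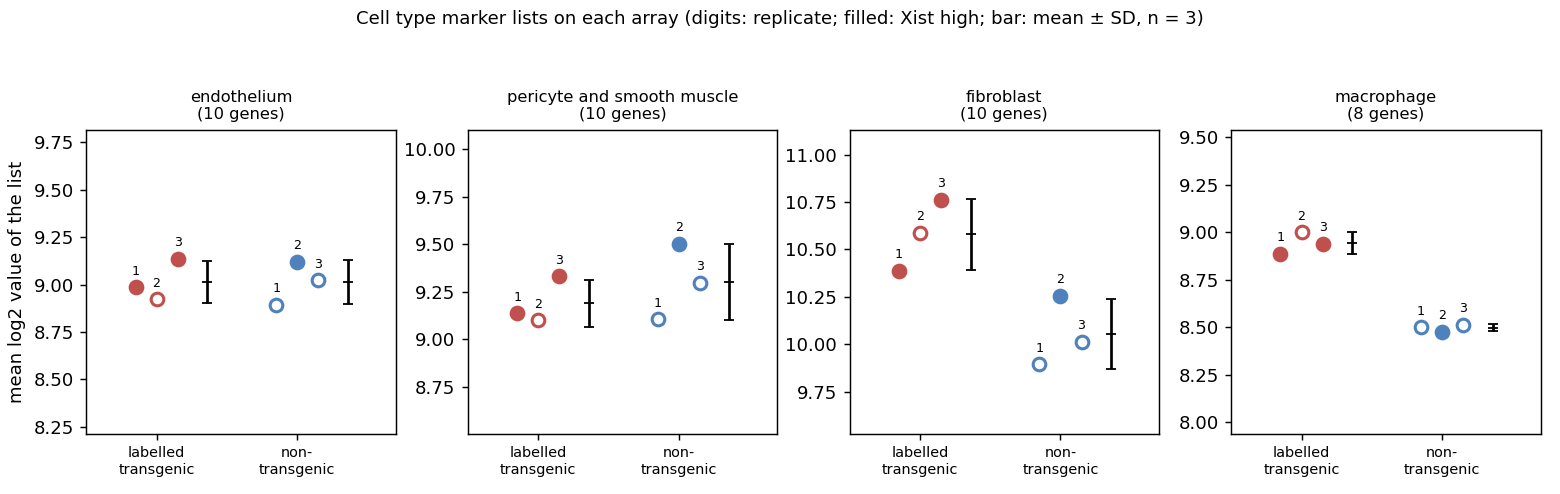
Mean log2 value (y axis, 1.6 log2 units in each panel) of 4 cell type marker lists on each array, with replicate numbers, filled points for high Xist and mean ± SD of 3 arrays per group. Endothelial and pericyte lists overlap between groups, while fibroblast and macrophage lists are higher on every labelled transgenic array.

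The pattern of each varying member over the 6 arrays was set against 7317 other named probe sets with an SD of at least 0.2. For Agtr1a the highest Pearson correlations were with Hsd17b7, an enzyme of cholesterol synthesis (r = 0.9987), Dusp10, a phosphatase of stress kinases (r = 0.9944), and Rfx5, a regulator of antigen presentation genes (r = 0.9916). All 3 shared the high value of non-transgenic array 1, with Dusp10 at 6.61 there and at 5.47 to 5.84 on the others. Enpep was most like Vipas39 (r = 0.9772), Gpcpd1 (r = 0.9753) and Lpar6, a lysophospholipid receptor (r = 0.9717). The Ace probe sets gave different neighbours, Asb3, Prrt4 and Gpatch4 for 1427034_at and Synpo2l, Porcn and Arvcf for 1451911_a_at, with r from 0.9872 to 0.9971. For Agt they were Ganc, Tob2 and Armcx1 (r from 0.98 to 0.996), each low on labelled transgenic array 3. Since 6 arrays were compared with so many probe sets, and the arrays share their group and station, these values only describe which genes had the closest profile.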

How the data were processed

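RNA of 6 mouse heart samples was read on Affymetrix arrays, 3 per group. The deposited values are on a log2 scale, 1 per probe set and array, and were made by the authors with GCRMA, per the submitters' processing notes, with no version given there. They were used as deposited. The deposited instrument records gave fluidics station and scan order. Of 45101 probe sets 64 controls were left out. Names came from the platform annotation of 2016, with 34945 probe sets of 1 gene, 932 of several and 9160 of none, and the first alone were named. Probe sets with a mean above log2 3.285 (22518) entered lmFit and eBayes of limma 3.58.1 under R 4.3.3 (2-sided, Benjamini-Hochberg, threshold 0.05), checked on simulated data. Differences are labelled transgenic minus non-transgenic, with moderated SE. Array number limits the precision. The smallest exact permutation p is 0.1. Members, lists and tests were chosen with earlier results of these data known. Besides the members, genes named were the passing ones of each pathway list, or else the 4 with the smallest p, with Atp6ap2, Grk5, Hbegf, Rgs2 and Nppa chosen after their values were seen, and the 3 closest profiles among probe sets with an SD of at least 0.2. Genes of the cell type lists, genes below the filter and genes not analysed were named outside these rules, for description. Replicate numbers did not pair the arrays. Alternatives covered the filter, normalization, centring, variance model, array weights, replicate block, station, Xist level and single arrays left out.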

Additional observations from a re-analysis of the deposited data

How the results depend on the processing

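No member probe set passed limma in any of the 17 alternatives, where 1 to 5 had an unadjusted p under 0.05. Both Ace probe sets, Enpep, Mas1 and Agtrap 1422965_at kept their sign in all alternatives run on them. Signs turned for Agt (0.034 without labelled transgenic array 3, with a range from -0.25 over single arrays left out), for Agtr1a (0.07 with array weights, 0.035 with the Xist term, 0.26 without non-transgenic array 1) and for Agtrap 1460596_at (-0.10 with the fluidics station as a block and within station 2, -0.009 without non-transgenic array 2 and up to 0.21 with 1 array left out). They also turned for Zbtb16 (0.001 with the station as a block and within station 2), Hsd11b1 (-0.22 in both of these, -0.031 without labelled transgenic array 2, -0.23 without non-transgenic array 2 and up to 0.29 with 1 array left out) and Nr3c2 (0.029 with array weights, 0.071 without labelled transgenic array 3, 0.14 without non-transgenic array 1 and down to -0.20 with 1 array left out). The cause was not tested. Over all probe sets 49 passed. The count was 15 without the brightness filter, 416 with a stricter brightness filter, at the 75th percentile, and 108 with a variance trend, 2 with the station as a block, and 0 in limma within station 2, with the Xist term or with the replicate block (3771, 3126 and 3324 at an unadjusted p under 0.05). With 1 array left out it ran from 0 to 75, being 75 without labelled transgenic array 1, 5 without non-transgenic array 1 and 0 in limma when another array was dropped (2532 to 3430 unadjusted). Of further pathway probe sets 1 passed, and the count was 5 with the stricter filter, 3 with a variance trend, 2 with median centring or array weights, and 0 in limma with the replicate block, the station as a block, within station 2 or with the Xist term (21, 15, 15 and 22 unadjusted). It ran from 0 to 3 with 1 array left out, being 3 without labelled transgenic array 1. The replicate numbers did not pair the arrays, since same-numbered arrays had correlations of deviations of -0.0831, -0.174 and -0.00672, and with the replicate block Enpep had an adjusted p of 0.196 and Ace of 0.208 and 0.259. Agtr1b and Agtr2, below the filter, were fitted without it alone. Signal near background limits Agtr1b, Agtr2 and Mas1.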
